A study of Mus musculus with 40 samples.

Results

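The nuclear genes for the subunits of the mitochondrial respiratory chain and ATP synthase were followed in RNA-seq of mouse early T-cell progenitors (ETP) and DN3 thymocytes. Members were all symbols that start with Ndufa, Ndufb, Ndufc, Ndufs or Ndufv and a digit, with Uqcr, with Cox4 to Cox8 or with Atp5, plus Sdha, Sdhb, Sdhc and Sdhd, leaving out symbols marked as pseudogenes. The rule found 85 of the 23284 genes in the table of the pI-pC and antibody experiments, and the same 85 of the 23107 genes in each of the tamoxifen tables. Of these, 37 were filed under complex I, 4 under complex II, 8 under complex III, 19 under complex IV and 17 under complex V.

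The study removed Zmiz1, a transcriptional cofactor of Notch1, or blocked Notch1 itself, and sorted both stages. All mice were on the C57BL/6 background, and their age is not given in the sources used here. In the inducible deletion, DeltaTamCre mice (Rosa26CreERT2 Zmiz1f/f) were set against TamCre mice (Rosa26CreERT2), with 4 mice in each group. Both received tamoxifen at 0.2 mg/g, and cells were sorted 43 to 44 hours later; the Rosa26 locus is active in most cell types, so the deletion was not limited to thymocytes. In the second deletion, DeltaMxCre mice (MxCre Zmiz1f/f) were set against MxCre mice, with 3 mice in each group. Both received 40 mcg of pI-pC every 2 days for 5 injections, which switches on the interferon-driven Cre in blood-forming and other tissues, and were sorted 8 weeks after it. In the antibody experiment, mice given the AntiNRR antibody, which holds the negative regulatory region of Notch1 closed, were set against mice given an IgG isotype antibody. Both antibodies were dosed at 10 mg/kg with sorting at 24 hours, and each group had 3 libraries. The labels do not say how many mice the antibody libraries came from, so their p-values measure only the spread between libraries. Together this gave 40 libraries in 12 groups.

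Oxidative phosphorylation joins 5 large complexes in the inner mitochondrial membrane. Complex I (NADH dehydrogenase) and complex II (succinate dehydrogenase) take electrons from fuel oxidation, complex III (cytochrome bc1) passes them to cytochrome c, and complex IV (cytochrome c oxidase) gives them to oxygen. Complexes I, III and IV pump protons, and complex V (ATP synthase) uses the proton gradient to make ATP. All complexes except complex II also hold subunits encoded in mitochondrial DNA, which are not analysed here. Thymocytes divide and grow strongly between the ETP and DN3 stages under Notch1 signals, and growing lymphocytes draw on both glycolysis and respiration.

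The libraries of the pI-pC and antibody experiments held 9456817 to 23962395 counts in genes, those of the tamoxifen DN3 experiment 48127197 to 91659597, and those of the tamoxifen ETP experiment 17418638 to 30975324. These 3 sets were made with different kits, so tests were run within a table only. Zmiz1 averaged 204 CPM (counts scaled to a common library size) in DeltaTamCre DN3 cells, against 322 in TamCre DN3 cells. It averaged 201 CPM in DeltaTamCre ETP, against 440 in TamCre ETP. In the pI-pC experiment the DeltaMxCre means were 120 CPM in DN3 and 89.8 CPM in ETP, against MxCre means of 318 CPM in DN3 and 238 CPM in ETP. The Notch1 target Dtx1 averaged 11.1 CPM in AntiNRR DN3 cells, against 166 in IgG DN3 cells, and 3.2 CPM in AntiNRR ETP cells, against 25.8 in IgG ETP cells. The labels give CD44 and CD25 on DN3 cells with the same signs as on ETP, but the genes that mark the stages differed between them: Ptcra, the pre-T-cell receptor chain, averaged 206 CPM in IgG DN3 and 33.0 CPM in IgG ETP, and Kit averaged 90.0 CPM in MxCre DN3 and 396 CPM in MxCre ETP.

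Of the 85 members, 77 passed the filter on low counts in all 8 comparisons, 4 passed in some, and 4 passed in none. The 4 that never passed were Cox7b2 and Cox8c, which had 0 counts in all 40 libraries, Cox8b and Ndufa4l2. Those that passed in some were Cox4i2, Cox6a2, Cox7a1 and Ndufs5. Ndufs5, a complex I subunit, was listed at 0 in 9 of 24 libraries of the pI-pC and antibody table and in 6 of 8 libraries of the tamoxifen DN3 table while genes of the same complex were well covered, so its values are not described, though it is counted among the members tested in 5 comparisons and in the interaction tests. The rule also caught names that are not subunits: Cox4nb is an older symbol of Emc8, a membrane protein insertion factor; Atp5s and Atp5sl are older symbols of Dmac2l and Dmac2; and Cox7a2l is a factor of respiratory supercomplexes. Ndufa4 was filed under complex I by name, but its protein is part of complex IV. The annotated exons of 30 members overlapped those of another gene, and whether the counting used strand is not given in the sources used here, so reads of such pairs may not be told apart. How reads that also match processed pseudogenes were assigned is not given either.

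Levels differed by complex, with ATP synthase on top. On the scale of CPM per kilobase of transcript, Atp5b, the catalytic beta subunit of ATP synthase, was the highest member in all 6 groups of control libraries. Its level was 1010 in TamCre DN3, 602 in MxCre DN3, 501 in IgG DN3, 378 in TamCre ETP, 579 in MxCre ETP and 568 in IgG ETP. Atp5a1, the alpha subunit beside it in the F1 head, was the next highest in 5 of these groups, for example 498 in TamCre DN3 and 447 in MxCre ETP. In TamCre ETP the next highest was Atp5h, a peripheral stalk subunit, with 296. The median member of complex V stood at 287 CPM per kilobase in TamCre DN3, against 186 for complex III, 178 for complex IV, 137 for complex II and 109 for complex I. In IgG DN3 the medians were 69.4, 64.4, 45.0, 45.7 and 34.5 in the same order of complexes. Complex I had the lowest median and complex V the highest in all 6 control groups. These medians leave out members at a mean of 0 but keep members near the floor. For complex IV they therefore cover 14 to 17 of 19 members, depending on the group. Levels in different tables are not comparable, because the kits differ.

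Of the families with tissue-specific isoforms, thymocytes used mostly 1 member. Cox4i1, the general form of subunit 4, made up 98.0 to 100% of Cox4i1 and Cox4i2 together over the group means, per transcript length. Cox6a1 made up 93.7 to 100% of Cox6a1 and Cox6a2, whose second member is known as the heart and muscle form. Cox6b2, known as the testis form of subunit 6b, was an exception. It made up 15.6 ± 2.32% of Cox6b1 and Cox6b2 in DeltaTamCre DN3 cells and 14.7 ± 2.69% in TamCre DN3 cells (SD, n = 4 each), and 32.3 ± 11.1% in DeltaTamCre ETP against 39.9 ± 5.19% in TamCre ETP. In the antibody experiment it made up 43.0 ± 9.59% in AntiNRR DN3 against 33.5 ± 6.83% in IgG DN3 (SD, n = 3 each), and the libraries of each of these pairs overlapped. Atp5g1, Atp5g2 and Atp5g3 encode the same mature c-ring protein of ATP synthase behind different import sequences. Per transcript length Atp5g1 had the smallest share: in IgG DN3 it made up 6.96% of the summed level, Atp5g2 41.3% and Atp5g3 51.8%. This share depends on the lengths used, 2655 bases for Atp5g1, 731 for Atp5g2 and 718 for Atp5g3. In CPM without length, Atp5g1 averaged 56.0 in TamCre ETP, above Atp5g3 at 46.7 and below Atp5g2 at 68.9. In TamCre DN3 it averaged 267 CPM, below Atp5g3 at 281 and Atp5g2 at 330.

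**Figure D1:**
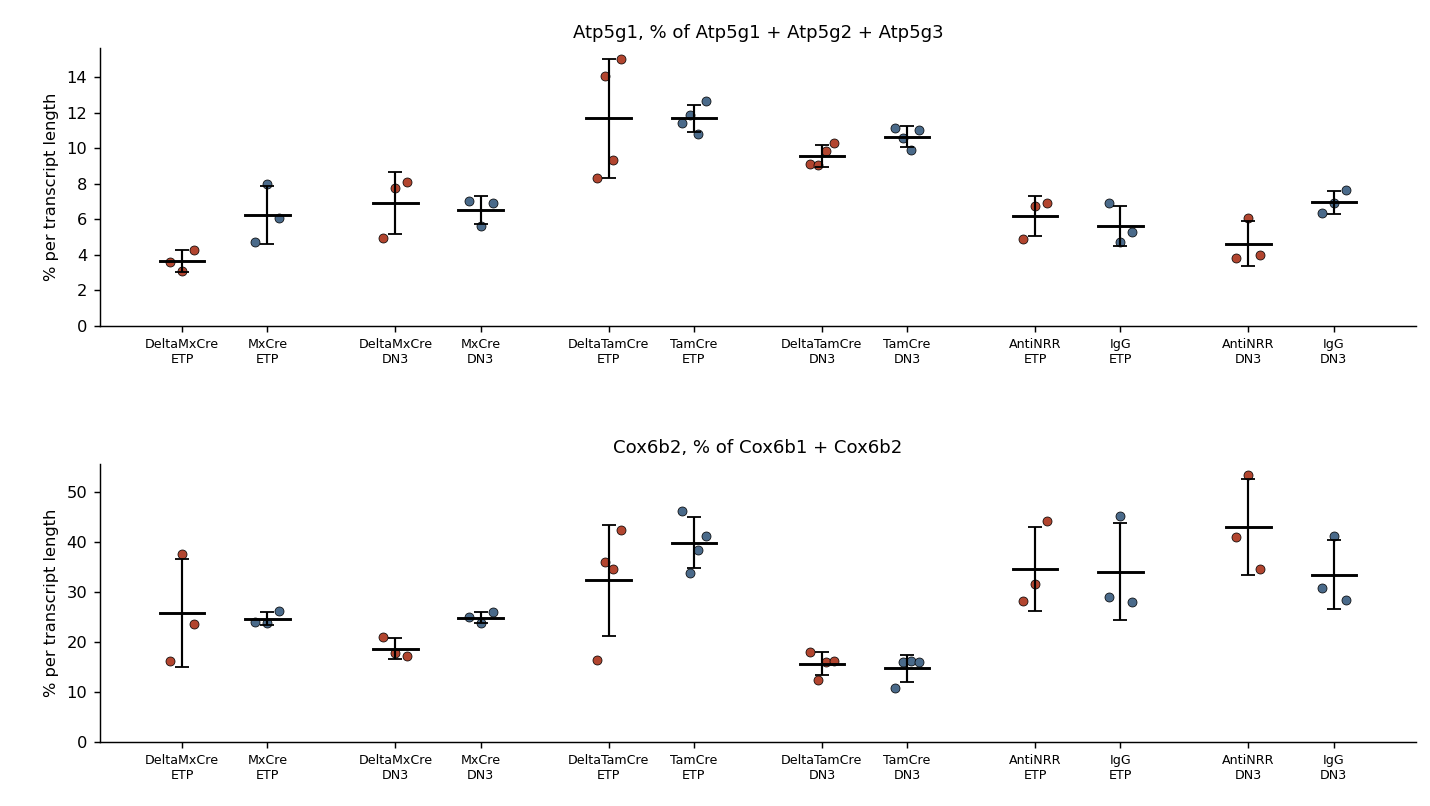
The share of Atp5g1 in the summed level of Atp5g1, Atp5g2 and Atp5g3, and of Cox6b2 in that of Cox6b1 and Cox6b2, in percent per transcript length. Dots are libraries, bars are group means and error bars are SD. In DN3 cells the Atp5g1 share was 3.82 to 6.08% with AntiNRR and 6.33 to 7.63% with IgG, and the Cox6b2 share 17.1 to 21.0% in DeltaMxCre and 23.8 to 25.9% in MxCre. In ETP the Atp5g1 share was 3.06 to 4.28% in DeltaMxCre and 4.72 to 7.97% in MxCre. All other pairs overlapped for both genes.

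Summed over all members, the transcripts took 1.244, 1.304, 1.203 and 1.204% of the scaled library in the 4 DeltaTamCre DN3 libraries, against 1.532, 1.342, 1.402 and 1.383% in the 4 TamCre DN3 libraries. These groups did not overlap. In DeltaMxCre DN3 the share was 0.583, 0.495 and 0.498%, against 0.627, 0.549 and 0.673% in MxCre DN3, and the highest DeltaMxCre library lay above the lowest MxCre library. In AntiNRR DN3 it was 0.528, 0.4505 and 0.501%, against 0.581, 0.522 and 0.520% in IgG DN3, again with an overlap. The ETP groups overlapped in all 3 experiments. DeltaTamCre ETP libraries held 0.492, 0.662, 0.531 and 0.497%, against 0.598, 0.636, 0.599 and 0.593% in TamCre ETP. DeltaMxCre ETP libraries held 0.697, 0.589 and 0.673%, against 0.530, 0.628 and 0.948% in MxCre ETP, whose replicate 3 stood far above the other 2. AntiNRR ETP libraries held 0.603, 0.664 and 0.733%, against 0.652, 0.617 and 0.740% in IgG ETP. Fewer cells of a type and less RNA of these genes per cell cannot be told apart in such bulk libraries.

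**Figure D2:**
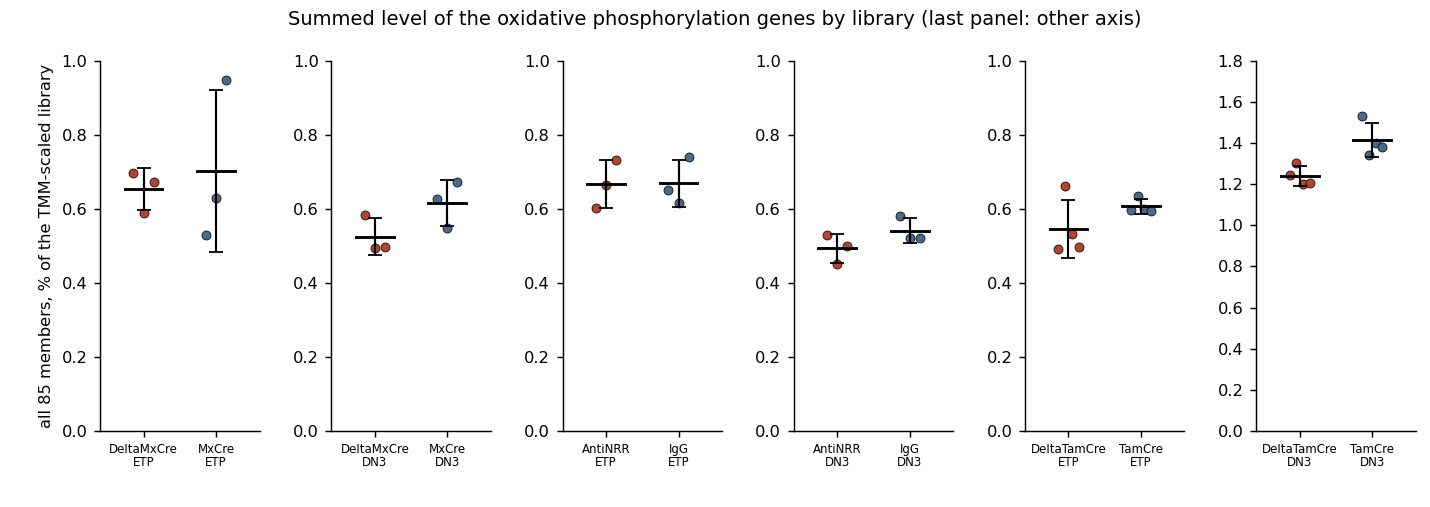
Summed counts of all members as a percent of the scaled library, for each treated-control pair at both stages (y axis; the last panel has its own axis). Dots are libraries, bars are means and error bars SD; the 4 DeltaTamCre DN3 libraries lie at 1.203 to 1.304% and the 4 TamCre DN3 libraries at 1.342 to 1.532%.

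In DN3 cells after tamoxifen, 76 of the 79 members tested had a log2 fold change below 0 in DeltaTamCre relative to TamCre, where 47.8% of all genes tested did. The median over members was -0.17, and the median over all genes was 0.01. The median standard error of a single member was 0.07, which is not the error of the median over members. No member passed edgeR's quasi-likelihood test at a Benjamini-Hochberg adjusted p of 0.05 (0 of 79, lowest adjusted p 0.12), where 0.0827% of all genes did. At an unadjusted p under 0.05, 42 members were lower and 0 higher, where 8.26% of all genes were lower. DESeq2, the alternative, called 8 members lower and 1.86% of all genes lower. The lower values ran through every complex. Of complex I, 35 of 35 tested members were below 0 with a median of -0.16. Of complex II it was 4 of 4 with -0.19, of complex III 8 of 8 with -0.20, of complex IV 14 of 15 with -0.17 and of complex V 15 of 17 with -0.18. The 3 members above 0, named after their values were seen, were Cox6a2 at 0.61 and the non-subunits Atp5s at 0.10 and Atp5sl at 0.03. Cox6a2 was near the floor, with means of 0.93 CPM in DeltaTamCre and 0.61 CPM in TamCre, and its groups overlapped.

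Ndufa12, an accessory subunit of complex I, had 118, 120.4, 118 and 116 CPM in the DeltaTamCre DN3 libraries, against 149, 138, 139 and 143 CPM in the TamCre DN3 libraries. All DeltaTamCre values lay below all TamCre values, with a log2 fold change of -0.27 ± 0.06 (SE; adjusted p 0.121 in edgeR and 0.0027 in DESeq2). Ndufb10, another accessory subunit, had 112, 107, 106 and 106 CPM in DeltaTamCre, against 131, 131, 123 and 125 CPM in TamCre, without overlap and with a log2 fold change of -0.24 (adjusted p 0.128 in edgeR, 0.0108 in DESeq2). Ndufs7, which carries an iron-sulfur cluster next to the quinone site, had 65.5, 65.6, 67.4 and 75.8 CPM in DeltaTamCre and 87.8, 81.9, 80.2 and 81.8 CPM in TamCre, again without overlap (log2 fold change -0.27; adjusted p 0.131 in edgeR, 0.0270 in DESeq2). Of complex II, the iron-sulfur subunit Sdhb averaged 167 ± 7.62 CPM in DeltaTamCre and 199 ± 20.1 CPM in TamCre (SD, n = 4 each; log2 fold change -0.25, adjusted p 0.194 in edgeR). The membrane anchor Sdhd averaged 159 CPM in DeltaTamCre and 179 CPM in TamCre.

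Among small subunits of complex III, Uqcr11 had 93.5, 89.8, 85.5 and 97.5 CPM in DeltaTamCre DN3, against 129, 117, 108 and 106 CPM in TamCre DN3. Uqcrq, which sits by cytochrome b, had 119.6, 105, 107 and 122 CPM in DeltaTamCre and 167, 146, 131 and 128 CPM in TamCre. Neither gene's groups overlapped, and their log2 fold changes were both -0.33 (adjusted p 0.128 and 0.155 in edgeR, 0.0157 and 0.0451 in DESeq2). Cox5b, a nuclear subunit of complex IV, had 175, 165, 161 and 158 CPM in DeltaTamCre and 213, 192, 199 and 197 CPM in TamCre, without overlap (log2 fold change -0.28 ± 0.07; adjusted p 0.128 in edgeR, 0.0071 in DESeq2). In complex V the c-ring gene Atp5g1 had 197, 208, 201 and 216 CPM in DeltaTamCre, against 312, 248, 244 and 266 CPM in TamCre. Its log2 fold change of -0.38 ± 0.09 had an adjusted p of 0.121 in edgeR and 0.0071 in DESeq2. Atp5o, the stalk subunit that links the F1 head to the membrane part, had 251, 246, 237 and 236 CPM in DeltaTamCre and 286, 279.7, 271 and 275 CPM in TamCre, without overlap (log2 fold change -0.20, adjusted p 0.19 in edgeR and 0.0297 in DESeq2). In all, 31 of the 79 members had DeltaTamCre values wholly below the TamCre values, where 5.81% of all genes did. The nuclear RNA Malat1 made up 0.046% of the DeltaTamCre DN3 libraries and 0.031% of the TamCre DN3 libraries. The 4 double-positive markers summed to 31.8 to 134 CPM in DeltaTamCre DN3 and 30.8 to 81.7 CPM in TamCre DN3, and the groups overlapped. The part of these RNAs in the differences was not tested.

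**Figure D3:**
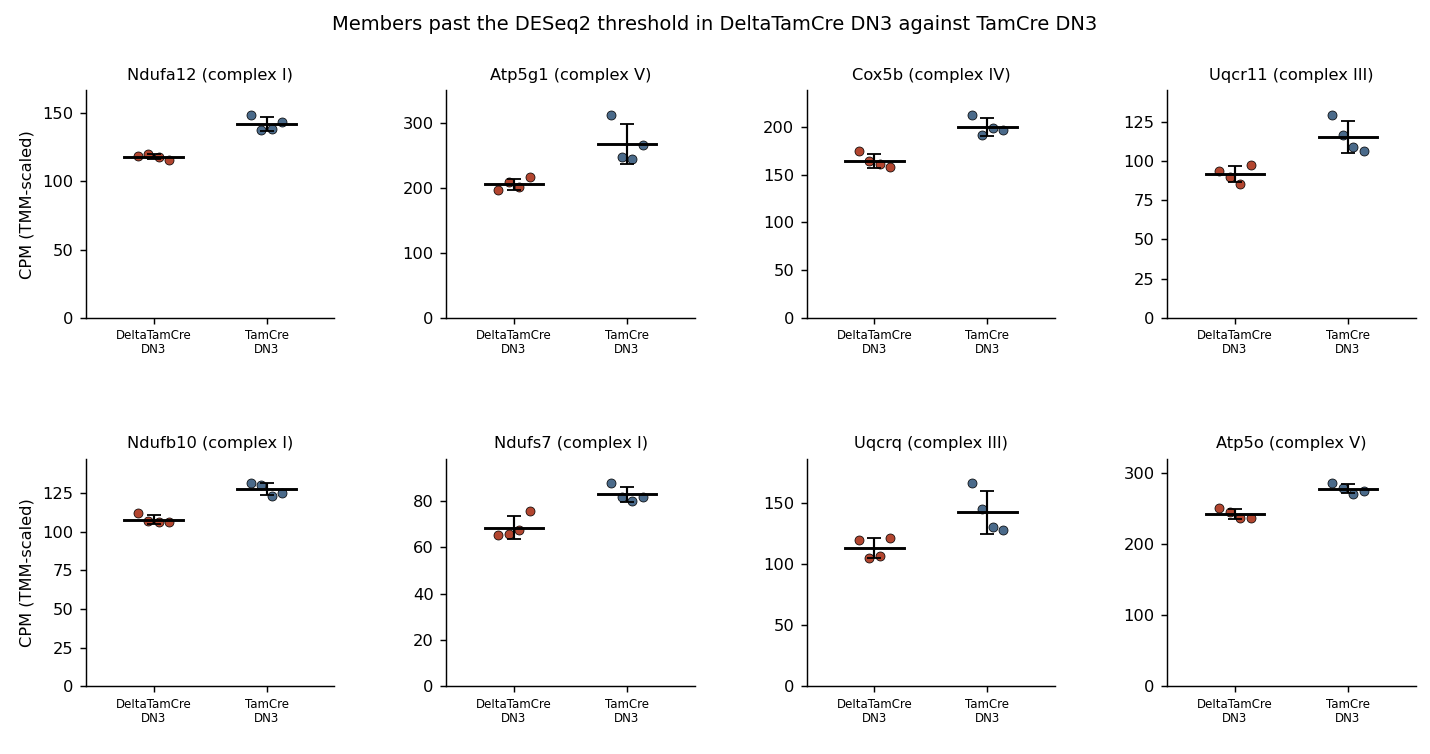
CPM in DN3 cells after tamoxifen for the 8 members past the DESeq2 threshold. Dots are the 4 DeltaTamCre and 4 TamCre libraries, bars are means and error bars SD; in each panel the DeltaTamCre values lie below the TamCre values, for Ndufa12 116 to 120.4 against 138 to 149 CPM.

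In DN3 cells 8 weeks after pI-pC, 60 of 78 members tested were below 0 in DeltaMxCre relative to MxCre, where 51.6% of all genes were, with a median of -0.19 and a median standard error of 0.21. Leaving out DeltaMxCre DN3 replicate 1 gave a median of -0.29, and leaving out MxCre DN3 replicate 1 gave -0.10. No member passed edgeR's test (0 of 78, lowest adjusted p 0.11), where 1.44% of all genes did. Without adjustment, at a p under 0.05, 13 members were lower and 0 higher, where 7.83% of all genes were lower, and DESeq2 called 1 member lower, where it called 1.65% of all genes lower. That member was Cox7a2, the general form of subunit 7a of complex IV, which had 20.4, 15.3 and 11.4 CPM in DeltaMxCre and 26.7, 25.01 and 33.7 CPM in MxCre. Its groups did not overlap, and its log2 fold change was -0.86 ± 0.26 (adjusted p 0.113 in edgeR, 0.0435 in DESeq2). Cox6b2 had 7.26, 6.16 and 4.45 CPM in DeltaMxCre and 13.7, 10.4 and 11.1 CPM in MxCre (log2 fold change -0.98, adjusted p 0.168 in edgeR). It made up 18.6 ± 2.099% of Cox6b1 and Cox6b2 in DeltaMxCre DN3, against 24.9 ± 1.02% in MxCre DN3 (SD, n = 3 each), with no overlap.

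In complex I of the same cells, the accessory subunit Ndufb9 averaged 48.1 ± 8.29 CPM in DeltaMxCre and 69.5 ± 7.72 CPM in MxCre (SD, n = 3 each). Its log2 fold change was -0.53, with an adjusted p of 0.149 in edgeR, and 19.5% of its exons overlap another gene. Atp5b averaged 903 ± 94.0 CPM in DeltaMxCre and 1154 ± 140 CPM in MxCre (log2 fold change -0.35, adjusted p 0.213 in edgeR). In complex V 16 of 17 tested members were below 0, with a median of -0.21, and in complex I 23 of 36, with a median of -0.12. Malat1 made up 1.18% of the DeltaMxCre DN3 libraries, against 0.573% of the MxCre DN3 libraries. The ribosomal RNA row Rn45s made up 4.88% with deletion, against 7.75% without, and the part of either in the result was not tested.

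In ETP after tamoxifen, 70 of 80 members tested were below 0 in DeltaTamCre relative to TamCre, where 45.6% of all genes were. The median was -0.18, with a median standard error of 0.17, and it was -0.29 without DeltaTamCre ETP replicate 2. No member passed edgeR's test (0 of 80, lowest adjusted p 0.91), where 0% of all genes did, and DESeq2 called 0 members. With no adjustment, 14 members were lower and 0 higher at a p under 0.05, where 2.3% of all genes were lower. The lowest p was that of Atp5k, the e subunit of ATP synthase, which had 15.5, 16.1, 10.2 and 17.0 CPM in DeltaTamCre, against 22.2, 31.0, 34.8 and 24.6 CPM in TamCre. These groups did not overlap (log2 fold change -0.93 ± 0.22 SE, unadjusted p 0.0011, adjusted p 0.907 in edgeR). Cox6b2 had 6.09, 20.2, 11.7 and 19.8 CPM in DeltaTamCre, spread over a wide range, against 28.6, 24.1, 28.3 and 26.5 CPM in TamCre (log2 fold change -0.89). Ndufa12 averaged 33.4 CPM in DeltaTamCre and 49.4 CPM in TamCre, and Cox5b 71.2 CPM in DeltaTamCre and 99.7 CPM in TamCre. By complex, 31 of 36 members of complex I, 3 of 4 of complex II, 8 of 8 of complex III, 13 of 15 of complex IV and 15 of 17 of complex V were below 0, with medians of -0.17, -0.08, -0.06, -0.25 and -0.19. In complex II Sdhb was above 0, with a mean of 75.7 CPM in DeltaTamCre ETP and 67.1 CPM in TamCre ETP. Summed markers of double-positive thymocytes ranged from 60.3 to 1258 CPM in DeltaTamCre ETP and from 86.8 to 593 CPM in TamCre ETP, and Malat1 made up 0.927% of the DeltaTamCre libraries, against 0.526% of the TamCre libraries; their part in the result was not tested.

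In ETP after pI-pC, 46 of 77 members were below 0 in DeltaMxCre relative to MxCre, where 52.5% of all genes were, and the median of -0.11 was smaller than the median standard error of 0.34. It turned to 0.21 without MxCre ETP replicate 3, the library with the highest member share, and then 20 of 79 members were below 0. Malat1 made up 0.0777% of that library, against 0.422% in MxCre ETP replicate 1 and 0.484% in replicate 2. Its part in the result was not tested. The median over members was -0.27 without MxCre ETP replicate 1, -0.05 without DeltaMxCre ETP replicate 2 and -0.17 without DeltaMxCre ETP replicate 3. No member passed edgeR's test (0 of 77, lowest adjusted p 0.84), where 0.0416% of all genes did, and DESeq2 called 0. At an unadjusted p under 0.05, 0 were lower and 1 was higher, where 2.85% of all genes were lower and 2.71% higher. The 1 with a higher value was Atp5j2, the f subunit of ATP synthase, with 17.8, 11.02 and 16.6 CPM in DeltaMxCre and 3.99, 4.22 and 7.53 CPM in MxCre (log2 fold change 1.53 ± 0.63, adjusted p 0.837 in edgeR). Summed markers of DN3 cells, Dtx1 and Ptcra among them, were 6027 to 6796 CPM in DeltaMxCre ETP and 2348 to 3284 CPM in MxCre ETP. Summed ETP markers, Kit among them, were 334 to 441 CPM in DeltaMxCre ETP and 703 to 959 CPM in MxCre ETP. Neither sum overlapped between the groups, and the part of these differences in the result was not tested.

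In DN3 cells 24 hours after the AntiNRR antibody, 49 of 78 members were below 0 relative to IgG, where 51.3% of all genes were, with a median of -0.13 and a median standard error of 0.22. The median was -0.01 without AntiNRR DN3 replicate 2 and -0.03 without IgG DN3 replicate 1. No member passed edgeR's test (0 of 78, lowest adjusted p 0.07), where 5.61% of all genes did. At an unadjusted p under 0.05, 8 members were lower and 0 higher, where 8.66% of all genes were lower, a share close to that of the members. DESeq2 called 1 member lower, and 3.61% of all genes. This was Atp5g1, which had 9.79, 14.1 and 9.77 CPM in AntiNRR and 20.3, 19.1 and 24.2 CPM in IgG. Its groups did not overlap (log2 fold change -0.93 ± 0.30; adjusted p 0.0718 in edgeR, 0.0333 in DESeq2). Atp5g1 made up 4.63 ± 1.26% of the 3 c-ring genes in AntiNRR DN3, against 6.96 ± 0.65% in IgG DN3 (SD, n = 3 each). Without AntiNRR DN3 replicate 1, 1 member passed edgeR's test.

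Atp5b had 730, 824 and 866 CPM in AntiNRR DN3, against 1008, 986 and 884 CPM in IgG DN3, below IgG in every library (log2 fold change -0.26, adjusted p 0.108 in edgeR). Uqcrc2, a core subunit of complex III, averaged 81.0 ± 11.8 CPM in AntiNRR and 107 ± 10.3 CPM in IgG, and Ndufv2, an iron-sulfur subunit of the NADH-oxidising arm of complex I, 85.9 CPM in AntiNRR and 110 CPM in IgG. Their adjusted p in edgeR were 0.0969 and 0.112. By complex, in complex I 17 of 36 members were below 0, with a median of 0.00, while in complex II it was 4 of 4, with -0.16, in complex III 6 of 8, with -0.22, in complex IV 9 of 13, with -0.06, and in complex V 13 of 17, with -0.14. No test of a difference between complexes was made. The summed shares of complex II and complex V did not overlap between AntiNRR DN3 and IgG DN3. For complex V the gap was narrow, with the highest AntiNRR library at 0.2428% and the lowest IgG library at 0.2437%. The shares of complexes I, III and IV and of all members overlapped. Rn45s made up 5.70% of the AntiNRR DN3 libraries (4.77 to 6.80), against 3.13% of the IgG DN3 libraries (2.75 to 3.74), without overlap, and Malat1 1.25% against 1.28%; their part in the differences was not tested.

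In ETP after the antibody, 37 of 78 members were below 0, where 48.8% of all genes were, with a median of 0.02. The median lay between -0.04 and 0.07 when single libraries were left out, and it was -0.04 without AntiNRR ETP replicate 3 and -0.04 without IgG ETP replicate 2. No member passed edgeR's test (0 of 78, lowest adjusted p 0.81), and 0% of all genes did. Of the 78, 1 was lower and 2 were higher at an unadjusted p under 0.05, where 2.86% of all genes were lower and 2.61% higher, and DESeq2 called 0. The lowest p was that of Ndufa4, with 24.0 ± 5.16 CPM in AntiNRR and 12.6 ± 1.602 CPM in IgG (SD, n = 3 each; log2 fold change 0.92, adjusted p 0.810 in edgeR).

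**Figure D4:**
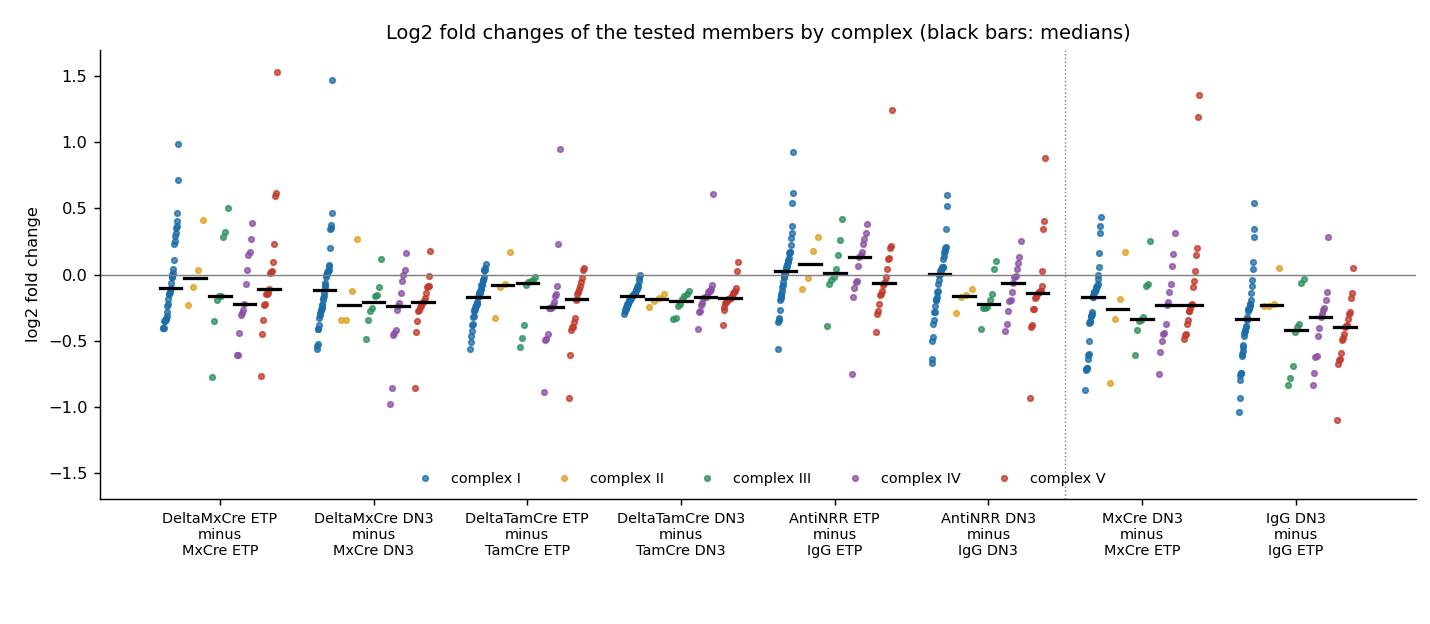
Log2 fold change of each member (points) by complex in the 6 treated-control pairs and the 2 stage comparisons, with black bars for the median of a complex. In DeltaTamCre DN3 the medians of complexes I to V lie between -0.20 and -0.16, and in the stage comparison of IgG libraries between -0.42 and -0.23.

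The 6 pairs share no libraries, and their signs are set side by side as a description. Whether the ETP and DN3 libraries of an experiment came from the same mice is not known here, so these pairs may not be independent. Of the 77 members tested in all of them, 13 were below 0 in every pair (16.9%), where 768 of 11098 genes were (6.92%), and 0 were above 0 in every pair. Without MxCre ETP replicate 3 the count was 7 of 77 (9.09%), where 5.14% of all genes were below 0 in every pair, and in the antibody pair in ETP the median over members was 0.02. The 13 came from every complex: Ndufa10, Ndufa12, Ndufb8 and Ndufv2 of complex I, the membrane anchor Sdhc of complex II, Uqcr11 and the core subunits Uqcrc1 and Uqcrc2 of complex III, Cox6a1 of complex IV, and Atp5a1, Atp5b, Atp5e and Atp5f1 of complex V. Some of the 13 barely lay below 0 in a pair. The highest log2 fold change was -0.004 for Cox6a1, the only one of complex IV, and -0.012 for Atp5f1. Over the 4 Zmiz1 deletions alone, 36 of 77 were below 0 in all (46.8%), against 14.4% of all genes, but without MxCre ETP replicate 3 it was 17 of 77 (22.1%), against 11.4%. In DN3 cells, 58 of 77 were below 0 in both deletions (75.3%), against 34.7% of all genes, 0 were above 0 in both and 19 had opposite signs. In ETP the count was 45 of 77 (58.4%), against 25% of all genes, and without MxCre ETP replicate 3 it was 18 of 79 (22.8%), against 21.8%, a share near that of all genes. The DN3 count lay between 49 and 66 with single libraries left out. The size of the change was only loosely shared: across the 77 members, which are not independent, Spearman's rho between the 2 deletions was 0.23 in DN3 cells and 0.11 in ETP.

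Whether an effect differed between stages was tested by interaction terms. The effect of the pI-pC deletion and the effect of the antibody were each compared between DN3 and ETP, and the deletion was compared with the antibody within each stage. edgeR called 0 members in all 4 tests. At an unadjusted p under 0.05, 4 members passed for the deletion effect in DN3 minus ETP, where 5.52% of all genes did, and 1 member for the antibody effect in DN3 minus ETP, where 5.46% did. For the deletion effect minus the antibody effect, 2 members passed in ETP, where 6.4% of all genes did, and 4 in DN3, where 12.5% did. DESeq2 called 1 member in the first of these tests and 0 in the others. That member was Ndufs5, also 1 of the 4 in the first test and 1 of the 2 in ETP at an unadjusted p under 0.05, which was at 0 in all 3 MxCre ETP libraries, so its fitted value is not given. Among the members with the lowest p, the difference for Atp5g1 between the antibody effects in DN3 and ETP was -1.14 ± 0.44 on the log2 scale (SE; adjusted p 0.901 in edgeR), and that for Ndufb9 between the deletion and antibody effects in DN3 cells was -0.76 ± 0.25 (adjusted p 0.157). For no member was an effect shown to differ between stages or between deletion and antibody by edgeR.

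The stages were compared within the control libraries of the pI-pC and antibody table, as DN3 minus ETP. In IgG libraries 70 of 78 members were below 0, where 50.5% of all genes were, with a median of -0.38 over members and -0.01 over all genes. edgeR's test called 10 members lower and 0 higher, where 7.6% of all genes were called lower and 14.7% in either direction. At an unadjusted p under 0.05, 30 members were lower and 0 higher, where 14.3% of all genes were lower, and DESeq2 called 15 lower, where it called 9.5% of all genes lower. All complexes except complex II held called members: 2 in complex I, 2 in complex III, 3 in complex IV and 3 in complex V. The summed shares of complexes I, III, IV and V were 0.127, 0.0527, 0.0688 and 0.2602% in IgG DN3, against 0.157, 0.0679, 0.0885 and 0.321% in IgG ETP, and their libraries did not overlap. Complex II took 0.0319% in IgG DN3 and 0.0344% in IgG ETP, with an overlap. Of its 4 members, 3 were below 0, with a median of -0.23 and a lowest adjusted p of 0.374 in edgeR. The 1 above 0 was the flavoprotein Sdha, at a log2 fold change of 0.05 (adjusted p 0.866 in edgeR). Sdha averaged 148 ± 10.7 CPM in IgG DN3 and 144 ± 13.4 CPM in IgG ETP (SD, n = 3 each). Whether the stage difference of complex II differed from that of the other complexes was not tested.

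Uqcrh, the acidic hinge subunit of complex III that helps bind cytochrome c, had 72.3, 49.9 and 60.7 CPM in IgG DN3, against 111, 116 and 100.1 CPM in IgG ETP. It fell by 0.84 ± 0.16 on the log2 scale (SE; adjusted p 0.0025 in edgeR), and every DN3 library lay below every ETP library. Atp5h, the d subunit of the ATP synthase stalk, had 109, 104 and 103 CPM in IgG DN3, close together, against 152, 152 and 199.99 CPM in IgG ETP (log2 fold change -0.67 ± 0.14, adjusted p 0.0036). Cox5b had 42.8, 45.3 and 43.3 CPM in IgG DN3 and 89.6, 53.5 and 90.5 CPM in IgG ETP, where replicate 2 stood apart at the low end (log2 fold change -0.83 ± 0.20, adjusted p 0.010 in edgeR). Cox8a, the general form of the smallest subunit of complex IV, had 39.6, 36.4 and 39.3 CPM in IgG DN3 and 61.0, 76.3 and 56.6 CPM in IgG ETP (log2 fold change -0.75 ± 0.18, adjusted p 0.0109). In none of these 4 genes did the stages overlap in IgG libraries.

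The other 6 called members were Uqcrq, Atp5f1, Ndufa2, Cox6c, Ndufa9 and Atp5g2. Uqcrq averaged 37.9 CPM in IgG DN3 and 61.2 CPM in IgG ETP, and Cox6c, a complex IV subunit, 95.0 CPM in IgG DN3 and 131 CPM in IgG ETP (adjusted p 0.0203 and 0.0465 in edgeR). Ndufa2 and Ndufa9, accessory subunits of complex I, had log2 fold changes of -0.80 and -0.60 (adjusted p 0.0381 and 0.0485), and the stalk subunit Atp5f1 and the c-ring gene Atp5g2 had -0.40 and -0.65 (adjusted p 0.0344 and 0.0499). The exons of 5 of these 6 overlap those of another gene in part, by 11.5% for Ndufa2, 8.2% for Atp5f1, 7.0% for Cox6c, 4.5% for Atp5g2 and 3.2% for Ndufa9. The counts of calls depended on single libraries: 2 members were called without IgG DN3 replicate 3, 4 without IgG DN3 replicate 2 and 6 without IgG ETP replicate 1. In all, 32 of 78 members had IgG DN3 values wholly below the IgG ETP values, where 16.6% of all genes did. Summed myeloid markers ranged from 12.7 to 25.2 CPM in IgG DN3 and from 77.6 to 328 CPM in IgG ETP, over 5 genes of which Mpo was at 0 in IgG DN3. Rn45s took 3.13% of counts in IgG DN3 and 11.04% in IgG ETP, and Malat1 took 1.28% in IgG DN3 and 0.649% in IgG ETP. The part of these RNAs in the stage difference was not tested.

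The upstream sequences of the 4 called members with the lowest adjusted p are printed here because these genes had the clearest stage difference in the IgG libraries. They are the 250 bases before the RefSeq start in GRCm38.p6, 5′ to 3′ on the gene's own strand, and capitals mark motif matches. They lie at chr4:116075071-116075320 on the minus strand for Uqcrh, chr11:115419920-115420169 on the minus strand for Atp5h, chr1:36691237-36691486 on the plus strand for Cox5b, and chr19:7217617-7217866 on the minus strand for Cox8a.
Uqcrh: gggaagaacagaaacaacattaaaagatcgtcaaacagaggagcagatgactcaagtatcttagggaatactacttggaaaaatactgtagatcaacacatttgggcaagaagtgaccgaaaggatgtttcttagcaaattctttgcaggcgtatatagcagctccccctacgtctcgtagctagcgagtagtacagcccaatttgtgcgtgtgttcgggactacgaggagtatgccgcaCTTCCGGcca
Atp5h: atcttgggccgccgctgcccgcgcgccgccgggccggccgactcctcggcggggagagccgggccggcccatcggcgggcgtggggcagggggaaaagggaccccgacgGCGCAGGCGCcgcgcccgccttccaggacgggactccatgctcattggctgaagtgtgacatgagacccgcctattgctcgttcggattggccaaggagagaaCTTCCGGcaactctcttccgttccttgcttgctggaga
Cox5b: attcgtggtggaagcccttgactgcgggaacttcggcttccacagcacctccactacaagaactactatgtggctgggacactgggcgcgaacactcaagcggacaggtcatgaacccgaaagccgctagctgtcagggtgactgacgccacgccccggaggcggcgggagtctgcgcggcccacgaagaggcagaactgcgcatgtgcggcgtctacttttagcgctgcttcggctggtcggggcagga
Cox8a: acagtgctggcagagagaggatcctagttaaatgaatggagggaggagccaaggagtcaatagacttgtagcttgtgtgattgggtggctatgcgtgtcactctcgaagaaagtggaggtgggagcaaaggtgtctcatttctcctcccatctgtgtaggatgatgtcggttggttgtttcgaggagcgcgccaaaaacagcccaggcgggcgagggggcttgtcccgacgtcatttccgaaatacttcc

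Motifs of 3 factors known in mammals to bind promoters of respiratory genes were searched on both strands as exact letters: GCGCA and GCGC with any 1 base between them for NRF1, CCGGAAG for ETS factors such as GABP, and AAGATGGC for YY1. In the Uqcrh sequence the capitals mark the ETS letters read on the other strand, and in Atp5h they mark an NRF1 match and an ETS match. In GENCODE M21, Atp5h reaches chr11:115419962 and Cox5b begins at chr1:36691449, so the ends of both printed stretches lie inside the gene. The ETS letters of Atp5h lie in that end. The printed Cox5b and Cox8a stretches hold none of the 3, and Cox8a holds ETS letters within the 50 bases after its start. RefSeq promoters were matched for 66 of the 85 members, in windows of 250 bases before to 50 after the start. For 54 of the 66 the window abutted the start of a RefSeq gene. NRF1 letters were found in 16 of these 66 (24.2%), against 4.78% of 27025 promoters in all. ETS letters were found in 15 (22.7%, against 9.12%), and YY1 letters in 8 (12.1%, against 2.88%). The 27025 promoters were not matched to the members for expression or base content, so the shares do not show a trait particular to respiratory genes. Of the 8 with YY1 letters, 7 belonged to complex I, while NRF1 letters were found in 5 of 13 promoters of complex V and 1 of 13 of complex IV. None of the YY1 matches lay wholly within the 250 bases before the start. A match describes letters in the window and not a bound site.

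In MxCre libraries, the same stage comparison had 62 of 77 members below 0, where 50.8% of all genes were, with a median of -0.23 and a median standard error of 0.32. edgeR's test called 0 of 77 members (lowest adjusted p 0.17), where 2.1% of all genes were called lower and 2.99% in either direction. Of these members, 4 were lower and 1 was higher at an unadjusted p under 0.05, where 9.15% of all genes were lower and 7.55% higher, and DESeq2 called 0. The median was 0.03, with 34 of 79 members below 0, without MxCre ETP replicate 3, the library with the highest member share. It was -0.41 without MxCre ETP replicate 1 and -0.12 without MxCre DN3 replicate 2. Uqcrh had 101, 57.3 and 43.2 CPM in MxCre DN3 and 91.6, 85.2 and 124 CPM in MxCre ETP, and these overlapped. Uqcrq had 62.2, 52.3 and 68.4 CPM in MxCre DN3 and 21.2, 59.8 and 69.4 CPM in MxCre ETP, and Cox6c averaged 89.5 CPM in MxCre DN3 and 78.8 CPM in MxCre ETP, so the means of both were higher in DN3 here. The lowest p was that of Cox7a2l, the supercomplex factor, with 145, 131 and 137 CPM in MxCre DN3, against 182, 189 and 202 CPM in MxCre ETP, without overlap (log2 fold change -0.50, adjusted p 0.169 in edgeR). Across both stage comparisons, which share no libraries with each other, 57 of 77 members were below 0 in both (74%), against 36.6% of all genes. Without MxCre ETP replicate 3 it was 31 of 78 (39.7%), against 32.4%. Spearman's rho across the members was 0.16, as a description. The control libraries are also those of the treated-control pairs, so the stage values and the treated-control values are not independent.

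**Figure D5:**
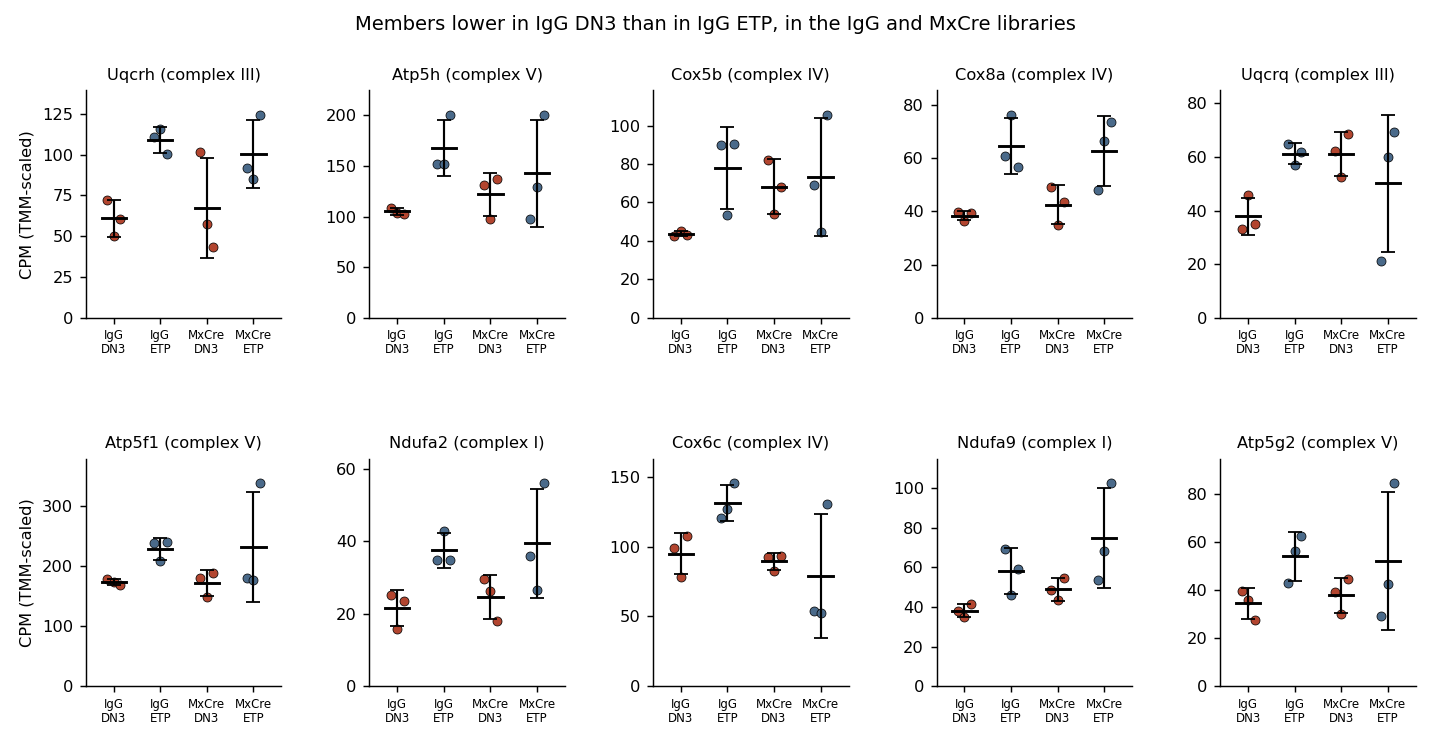
CPM of the 10 members called lower in DN3 than in ETP by edgeR in IgG libraries, with the MxCre libraries beside them (DN3 left of ETP for each). Dots are libraries, bars are means and error bars SD; Uqcrh lies at 49.9 to 72.3 CPM in IgG DN3 and 100.1 to 116 CPM in IgG ETP, while its MxCre values overlap.

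Genes that work with the chain outside the symbol rule were read from lists of pathway genes. Of the treated-control pairs, AntiNRR DN3 against IgG DN3 was the only one with edgeR calls in these lists: 8 genes were lower and 0 higher of 77 tested, where 5.61% of all genes were called in either direction. Cycs, cytochrome c itself, averaged 42.1 ± 10.5 CPM in AntiNRR DN3 and 75.5 ± 5.36 CPM in IgG DN3 (SD, n = 3 each; log2 fold change -0.85, adjusted p 0.0052), and was the 1 of 9 chain components outside the rule that was called. Cox18, which inserts a core subunit of complex IV into the membrane, averaged 3.53 CPM in AntiNRR and 12.7 CPM in IgG and was the 1 called of 19 assembly factors of complexes II to V. In the tricarboxylic acid cycle 2 of 14 genes fell, Idh3a by 0.45 and Suclg2 by 0.80 on the log2 scale (adjusted p 0.0382 and 0.0256 in edgeR). Of 16 regulators of mitochondrial gene expression 4 fell. Among them, Pprc1, a coactivator related to PGC-1, averaged 82.7 ± 15.5 CPM in AntiNRR and 127 ± 2.80 CPM in IgG (log2 fold change -0.63, adjusted p 0.0059 in edgeR). Myc averaged 66.2 ± 2.97 CPM in AntiNRR and 130.1 ± 35.0 CPM in IgG (log2 fold change -0.99, adjusted p 0.00025). The 9 assembly factors of complex I and the 10 other electron carriers held 0 calls by edgeR and by DESeq2, with 2 at an unadjusted p under 0.05 in each list.

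Between the stages in IgG libraries, edgeR called 7 genes of the lists lower and 1 higher of 77 tested, where 7.6% of all genes were called lower and 14.7% in either direction. The small ATP synthase component Usmg5 rose by 0.88 on the log2 scale to 46.7 ± 4.48 CPM in IgG DN3, against 25.3 ± 5.38 CPM in IgG ETP (SD, n = 3 each; adjusted p 0.0127 in edgeR). Atpif1, the inhibitor of ATP synthase, fell to 68.0 CPM in IgG DN3, against 115 CPM in IgG ETP (adjusted p 0.0081 in edgeR). In the tricarboxylic acid cycle 3 of 14 genes fell, the lowest p being those of Suclg1 at -0.83 and Idh3g at -0.54 (adjusted p 0.0050 and 0.0365 in edgeR). The regulators Polg, the mitochondrial DNA polymerase, and Gabpb1, a GABP subunit, fell by 1.02 and 0.56 (adjusted p 0.0115 and 0.0282), 2 of 16 in their list. The 9 complex I assembly factors held 0 calls by edgeR and by DESeq2 and 2 at an unadjusted p under 0.05, with 1 of 9 below 0, where 50.5% of all genes were, and a median of 0.42. Their difference from the complex I subunits, at -0.34, was not tested.

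In DeltaTamCre DN3 cells edgeR called 0 genes of the lists, with 21 at an unadjusted p under 0.05, and DESeq2 called 6 of 77, all lower, where it called 1.86% of all genes lower. One of these was Myc, with 463 ± 72.6 CPM in DeltaTamCre DN3 and 626 ± 28.2 CPM in TamCre DN3 (SD, n = 4 each; log2 fold change -0.43; adjusted p 0.128 in edgeR, 0.0096 in DESeq2). All 14 tricarboxylic acid cycle genes were below 0 there, where 47.8% of all genes were, and 13 of 14 were in DeltaMxCre DN3, where 51.6% of all genes were. In DeltaMxCre DN3, edgeR called 0 genes of the lists, with 16 at an unadjusted p under 0.05, and DESeq2 called 1 of 76, where it called 1.65% of all genes lower. This was Myc, with a log2 fold change of -0.84 (adjusted p 0.211 in edgeR, 0.0209 in DESeq2). In the ETP pairs edgeR and DESeq2 called 0 genes of the lists, with 5 at an unadjusted p under 0.05 in DeltaTamCre, 3 in DeltaMxCre and 6 in AntiNRR.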

How the data were processed

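RNA-seq of sorted mouse thymocytes was analysed from 3 deposited gene tables, with 40 libraries in 12 groups given by the labels. The values are estimated counts per gene that the authors deposited. They are nearly all whole numbers, and they were rounded before testing. The submitters' processing notes name Cuffdiff 2.1.1, Cufflinks, TopHat2 2.0.9, Bowtie2 2.1.0.0 and FastQC 0.10.0 with the mouse build mm10, without saying which step made the counts; the use of strand is not given in the sources used here. Per the labels' protocols, the pI-pC and antibody libraries were made from 10 ng of RNA with a SMARTer kit after removal of ribosomal RNA and 16 PCR cycles, the tamoxifen DN3 libraries from 100 ng with a poly(A) TruSeq kit and 12 cycles, and the tamoxifen ETP libraries from 1 ng with a stranded SMARTer kit and 15 cycles.

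Each of the 8 comparisons was fitted over all genes with edgeR 4.0.16 in R 4.3.3 (filterByExpr with a minimum count of 10 and a total of 15, TMM scaling, robust quasi-likelihood F test, Benjamini-Hochberg threshold 0.05). Log2 fold changes are tested over control or DN3 over ETP, with a prior count of 0.125. CPM were scaled by TMM over all libraries of a table, and CPM per kilobase used the median length of a gene's GENCODE M21 transcripts. The 6 treated-control pairs and 2 stage comparisons were fitted on their own 2 groups, and 4 interactions on the 4 groups involved. Alternatives were DESeq2 1.42.0, other scaling and filters, 1 fit over a table, the replicate number as a block and leaving out single libraries. Scripts were tested on simulated data. Positions are from GENCODE M21 and promoter sequences from RefSeq, both on GRCm38.

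Genes named are the 2 members with the lowest p in each complex and comparison, all members called (up to 15), the isoform sets and Sdha to Sdhd, the 3 lowest p in each interaction, and the 2 lowest p in a pathway list with a call. The members, gene lists and tests were chosen with earlier results of these data known. Deviations of same-numbered libraries of different groups correlated from -0.355 to 0.184, so the fits have no block. The highest value was that of replicate 3 of MxCre DN3 and MxCre ETP. Whether same-numbered libraries of both stages came from the same mice is not known here. 1 member that the naming rule picks is not reported here.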

Additional observations from a re-analysis of the deposited data

Results flagged for a closer look

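Among 64 values tested in the groups of 4 libraries, 7 had 1 library far from the other 3, and chance alone flags about 1 in 20. Ndufb10 stood at 112 CPM in DeltaTamCre DN3 replicate 1, against 106 to 107 in the other 3. The share of complex V was 0.607% in DeltaTamCre DN3 replicate 2, against 0.534 to 0.542% in the others. TamCre DN3 replicate 1 stood out in 3 values: the share of complex I was 0.356%, against 0.331 to 0.334%, that of complex III was 0.145%, against 0.131 to 0.132%, and Cox5a was at 185 CPM, against 150.5 to 154 CPM. All 3 were the highest of their group. In TamCre ETP, all members together took 0.636% in replicate 2, against 0.593 to 0.599%, and complex V took 0.254% in replicate 3, against 0.261 to 0.262%.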

How the results depend on the processing

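The number of members called was 0 in edgeR's test in every comparison except the stage comparison of IgG libraries, which had 10. With DESeq2 it was 1 in DeltaMxCre DN3, 8 in DeltaTamCre DN3, 1 in AntiNRR DN3 and 1 for the deletion effect in DN3 minus ETP, and without a filter on low counts it was 1, higher, in DeltaMxCre ETP. With the replicate number as a block, 2 members were called in AntiNRR DN3 and 6 in the IgG stage comparison. Whether the numbers pair the samples is not known here. With all groups of a table in 1 fit, 3 were called in the IgG stage comparison and 1, higher, in the MxCre stage comparison. Leaving out single libraries gave 2 to 11 calls in the IgG stage comparison, 0 to 1 in AntiNRR DN3 and 0 elsewhere. The median over members then ranged from -0.43 to -0.30 in the IgG stage comparison, -0.41 to 0.03 in the MxCre stage comparison, -0.20 to -0.15 in DeltaTamCre DN3, -0.29 to -0.14 in DeltaTamCre ETP, -0.29 to -0.10 in DeltaMxCre DN3, -0.27 to 0.21 in DeltaMxCre ETP, -0.18 to -0.01 in AntiNRR DN3 and -0.04 to 0.07 in AntiNRR ETP. Over single libraries left out, Sdhd in DeltaMxCre ETP ranged from -0.55 to 0.19, and it reversed without MxCre ETP replicate 3; Sdhc in the MxCre stage comparison ranged from -0.55 to 0.0213 and reversed without the same library. Their values with all libraries were -0.23 and -0.34, and the cause was not tested. Of 1004 alternatives over 82 values of named members, 2 reversed, 44 were no longer past the threshold of the test and 13 newly were. DESeq2 size factors kept the sign of every median. A count without Cox4nb and the other non-subunits was chosen after seeing the data. Groups of 3 or 4 limit what can be called: in the pI-pC and antibody table the median standard error of a member's log2 fold change, 0.21 to 0.34, exceeded the median difference in all treated-control pairs. This error is that of a single member and does not measure the spread of the median over members.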
